A study of Arabidopsis thaliana with 14 samples.

Results

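A set of 10 genes of the jasmonate pathway of Arabidopsis thaliana were followed through measurements of poly(A) sites, m6A, CPSF70 binding and transcript levels. They were MYC2 (AT1G32640), JAZ1 (AT1G19180), JAZ2 (AT1G74950), JAZ3 (AT3G17860), JAZ9 (AT1G70700), JAZ10 (AT5G13220), LOX2 (AT3G45140), AOS (AT5G42650), VSP1 (AT5G24780) and VSP2 (AT5G24770). They were chosen by locus as 10 of 37899 nuclear genes, with results of these libraries already known. The change of MYC2 in site use and the FPKM of VSP2 were among those results, so both are given as descriptions without a test of their own.

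Jasmonoyl-isoleucine, the active hormone, is made from fatty acids of the plastid after wounding or attack and is perceived by the F-box protein COI1 together with a JAZ protein. JAZ proteins bind the transcription factor MYC2 and hold it inactive, and their degradation frees MYC2 to switch on its targets. Many JAZ genes are themselves targets of MYC2, so the repressors are replaced after each response.

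The study asked whether alternative polyadenylation depends on m6A and on CPSF70, a protein from the CPSF30 locus that carries an m6A-binding YTH domain. Poly(A) ends were sequenced in 12-day seedlings of the wild type Col0 and of the cpsf70 mutant, with 2 libraries each. RNA-seq covered the same 2 genotypes at 12 days. CLIP with an anti-FLAG pull-down was made from 12-day plants of a line that overexpresses CPSF70 (2 libraries), and m6A sequencing from 14-day Col0 seedlings (2 libraries). Whole seedlings were used throughout, so fewer cells of a type and less RNA per cell cannot be told apart. Neither the mutant allele nor the promoter of the overexpression line is stated in the labels. As a check of the labels, the mutated locus, CPSF30 (AT1G30460), had an FPKM of 5.58 and 4.87 for Col0 and of 0.542 and 0.593 for the mutant in the authors' deposited table.

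The level of a poly(A) cluster is a normalised tag count (TPM). Levels of different genes are set side by side on the reading that 1 tag marks 1 transcript end, which was not tested. The libraries of Col0 held 3.14 M and 3.25 M reads and those of cpsf70 held 3.88 M and 6.09 M, as recovered from the spacing of low values. The tables of Col0 and of cpsf70 replicate 2 list no cluster under 3 TPM. Both cpsf70 tables list the same 29896 clusters, so replicate 1 adds a value but no separate listing. A cluster that appears in both cpsf70 tables, or in neither, is therefore 1 observation, and an unlisted cluster is bounded at 3 TPM only in Col0 and in cpsf70 replicate 2. Both cpsf70 tables also carry 1 internal name, with 0 identical values between them.

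Of the 10 genes, 9 had a poly(A) cluster and a total that could be tested, meaning the summed TPM of sites listed in all 4 tables. JAZ10, a repressor gene, had no cluster in any table, which bounds each of its sites at 3 TPM in Col0 and in cpsf70 replicate 2. Over all sites listed in Col0, levels were highest for VSP2 (92.4 ± 12.7 TPM, SD, n = 2) and LOX2 (81.6 ± 13.9 TPM), whose libraries overlapped. MYC2 followed at 45.9 ± 16.1 TPM, above JAZ9 at 21.2 ± 3.84 TPM, and JAZ9 overlapped AOS at 17.7 ± 2.00 TPM. JAZ1 (13.0 ± 3.75 TPM) stood below AOS and above JAZ3 (8.15 ± 0.644 TPM), and JAZ3 overlapped VSP1 (8.01 ± 2.19 TPM). JAZ2 was lowest of the 9 at 5.14 ± 1.87 TPM, close to the listing floor, and its higher library equalled the lower one of VSP1.

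No total of the 9 genes passed the test between genotypes (limma on log2(TPM + 1), Benjamini-Hochberg adjusted over 10223 genes, threshold 0.05), where 1.78% of all genes did. Both cpsf70 libraries lay above both Col0 libraries for JAZ1, JAZ2, JAZ3, JAZ9, VSP1 and VSP2, which is 6 of the 9, against 18.4% of all genes tested. For JAZ1 this holds only because its total leaves out a downstream site that cpsf70 does not list: over all listed ends its genotypes overlapped, and with absent sites set to 0 its log2 change was 0.36 in place of 1.39. The median change of the 9 totals was 0.37 on the log2 scale, beside 0.022 over all genes, with 8 of 9 above 0 beside 52% of all genes. An unadjusted p under 0.05 was reached by 3 of the 9, JAZ2, JAZ9 and JAZ1 (without that site), beside 6.53% of all genes and 2.02% counted toward higher values. Since these genes were chosen with results of the same libraries known, none of these counts is independent evidence. At the level of single sites none of the 11 tested sites of these genes passed, beside 2.2% of 13668 sites. In this fit limma pooled the spread over all genes, so every total carries the same SE of 0.45. After rescaling by median ratios it did not pool fully (prior degrees of freedom 2.44), so the common SE depends on the scaling. The intervals and unadjusted p-values of the totals rest on this SE, also for genes whose replicates lay far apart.

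**Figure D1:**
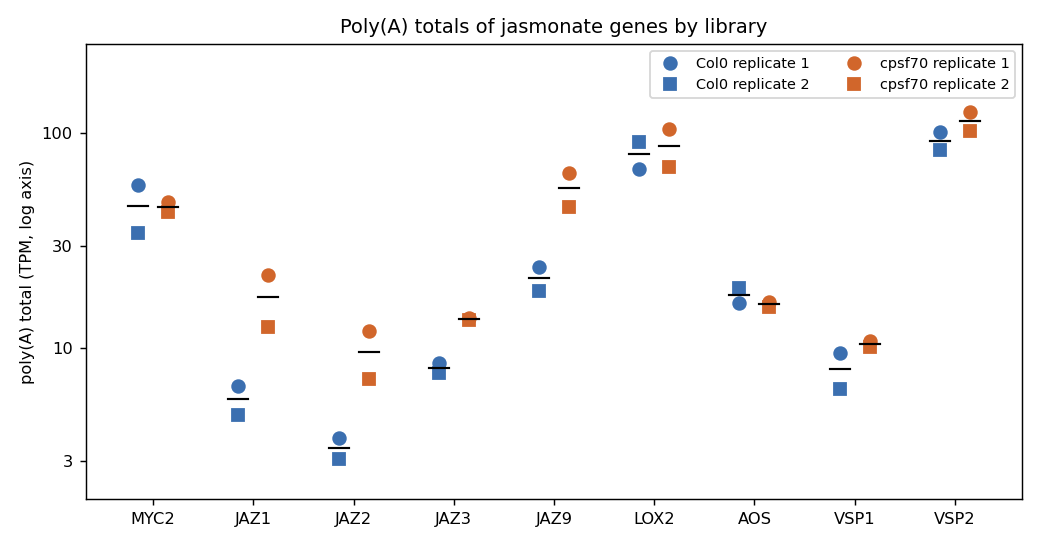
Poly(A) totals (TPM, log axis) of the 9 genes with a tested total, with 1 point per library and a black line at each genotype's mean. The cpsf70 points stand above the Col0 points for JAZ1, JAZ2, JAZ3, JAZ9, VSP1 and VSP2, and they overlap for MYC2, LOX2 and AOS. The total of JAZ1 leaves out its site listed only in Col0.

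MYC2, the basic helix-loop-helix factor at the centre of the pathway, had poly(A) tags at 3 places on the minus strand of chromosome 1 (TAIR10). All 3 places lay inside its annotated span, and cpsf70 seedlings had more tags at the distal place. The proximal site, chr1:11800810-11800844, stood at 34.3 and 17.0 TPM in Col0 and at 9.30 and 8.54 TPM in cpsf70. The distal site, chr1:11798794-11798936, stood at 23.0 and 17.5 TPM in Col0 and at 38.6 and 34.5 TPM in cpsf70. Neither pair of genotypes overlapped, and the differences had opposite signs, −1.35 and 0.83 on the log2 scale. The share of all sites without overlap was not counted. A middle site, chr1:11799576-11799622, was listed only in cpsf70, at 7.21 and 6.07 TPM.

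The total of MYC2 showed no such separation. Both sites together gave 57.3 and 34.6 TPM for Col0 and 47.9 and 43.0 TPM for cpsf70, a log2 change of 0.028 (limma adjusted p = 1.00). The Col0 libraries enclosed both cpsf70 libraries. With the middle site added, the cpsf70 libraries held 55.1 and 49.1 TPM.

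Of the tags at the proximal and distal sites of MYC2, the proximal site took 59.9% in Col0 replicate 1 (52.4 to 67.2%, exact 95% binomial interval) and 49.2% in replicate 2 (39.5 to 58.7%). It took 19.4% in cpsf70 replicate 1 (13.9 to 25.8%) and 19.8% in replicate 2 (15.2 to 25.2%). The middle site is not in these shares. The intervals cover counting error only, since reads without molecular identifiers need not be independent molecules.

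Site use compares the 2 strongest sites of a gene as log2((distal + 1)/(proximal + 1)). It was −0.56 and 0.043 for MYC2 in Col0 and 1.94 and 1.90 in cpsf70. The change of 2.18 ranked 15th of 1966 genes toward the distal site. Over those genes the median change was −0.40, and 28.3% had a change above 0. The change of MYC2 thus had the opposite sign from that of most genes, with both cpsf70 libraries close together and both Col0 libraries further apart.

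The places of these ends need care. Cluster bounds were drawn separately in each genotype, and at the proximal site the Col0 cluster, chr1:11800819-11800844, met the cpsf70 cluster, chr1:11800810-11800826, only in part. The gene AT1G32630 covers 98.5% of the annotated span of MYC2, and the annotation used gave no strand. Ends of the 2 genes could not be told apart if they share the strand. Counted from the distal site in the direction of transcription, the annotated span of MYC2 runs from −2542 to 746 nt. The proximal clusters lie at −1979 to −1954 nt in Col0 and at −1961 to −1945 nt in cpsf70, nearer the start of the span than its end. Whether tags there mark true ends of MYC2 transcripts was not tested. Exons and untranslated regions were not used here.

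**Figure D2:**
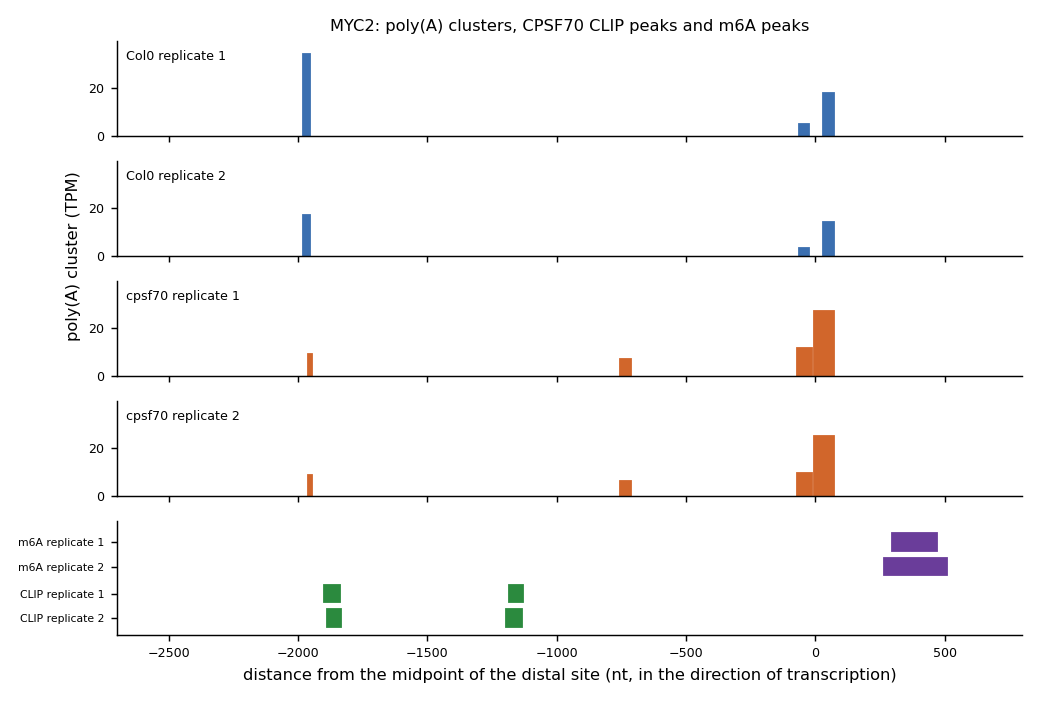
Poly(A) clusters on the minus strand at MYC2 (height in TPM, 1 panel per library), with m6A and CLIP peaks of both replicates in the lowest panel. The horizontal axis is the distance in nt from the midpoint of the distal site. The left cluster is taller in Col0 (34.3 and 17.0 TPM) than in cpsf70 (9.30 and 8.54 TPM), and the m6A peaks lie to the right of every cluster.

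CPSF70 CLIP peaks lay at 2 places in MYC2 and were found in both replicates at each. The upstream pair, chr1:11800701-11800765 (fold 3.05, the authors' value as for all peak folds) and chr1:11800700-11800753 (fold 2.53), was centred 94.0 and 100.5 nt downstream of the proximal site. The second pair, chr1:11799996-11800049 (fold 4.77) and chr1:11799999-11800061 (fold 4.84), lay between the proximal and middle sites. No CLIP peak overlapped a listed MYC2 site.

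m6A peaks at MYC2 lay beyond its last listed site. They were chr1:11798397-11798569 (fold 3.48) and chr1:11798355-11798599 (fold 6.01), centred 382 and 388 nt downstream of the distal site. These peaks carry no strand, and they overlap a cluster on the opposite strand, chr1:11798526-11798572, at 3.51 and 4.0 TPM in both Col0 libraries and 6.95 and 4.10 TPM in cpsf70. Which strand the m6A peaks belong to cannot be told apart.

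JAZ1 encodes a ZIM-domain repressor of MYC2. Its upstream site, chr1:6623423-6623468 on the plus strand, stood at 6.69 and 4.93 TPM in Col0 and at 22.0 and 12.6 TPM in cpsf70, or 21.0, 16.0, 85.4 and 76.5 reads. The ratio of means was 2.97 and the log2 change 1.39 (SE 0.45, 95% interval 0.50 to 2.27, limma adjusted p = 0.0999). Both cpsf70 libraries stood above both Col0 libraries, and the change did not pass.

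The downstream site of JAZ1, chr1:6623543-6623581, was listed only in Col0, at 8.93 and 5.39 TPM. It held 57.1% of the listed JAZ1 ends in Col0 replicate 1 (exact interval 42.2 to 71.2%) and 52.2% in replicate 2 (33.5 to 69.2%). In cpsf70 replicate 2 a site just under the 3 TPM floor would hold at most 19.3%. With both sites counted, JAZ1 held 15.6 and 10.3 TPM for Col0 and 22.0 and 12.6 TPM for cpsf70, and the genotypes then overlapped. When absent sites were set to 0 the log2 change of the JAZ1 total was 0.36, beside 1.39 at the upstream site alone.

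CLIP peaks flanked that downstream JAZ1 site in both replicates. One shared pair, chr1:6623470-6623525 (fold 4.59) and chr1:6623484-6623541 (fold 4.96), lay between the 2 sites. The other, chr1:6623583-6623632 (fold 3.58) and chr1:6623576-6623637 (fold 6.12), began where the downstream site ended. JAZ1 had no m6A peak.

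JAZ2 encodes another repressor of MYC2, known for its part in stomatal guard cells. Its main site, chr1:28148561-28148605 on the minus strand, stood at 3.83 and 3.08 TPM in Col0 and at 12.1 and 7.22 TPM in cpsf70. The ratio of means was 2.80 and the log2 change 1.23 (95% interval 0.34 to 2.11, limma adjusted p = 0.232). The genotypes did not overlap. A change of at least this size was found in 0.606% of all genes.

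An upstream site of JAZ2, chr1:28148691-28148788, was not listed in Col0 replicate 1 and stood at 3.39 TPM in Col0 replicate 2, 6.44 in cpsf70 replicate 1 and 3.53 in cpsf70 replicate 2. Its share of JAZ2 ends was 52.4% in Col0 replicate 2 (exact interval 29.8 to 74.3%), 34.7% in cpsf70 replicate 1 (23.9 to 46.9%) and 32.8% in cpsf70 replicate 2 (22.2 to 46.0%). These intervals overlapped. Both m6A peaks of JAZ2, chr1:28148610-28148868 (fold 2.99) and chr1:28148604-28148853 (fold 2.77), covered the upstream site. The CLIP peaks, chr1:28148726-28148821 (fold 4.94) and chr1:28148769-28148819 (fold 5.42), lay inside the m6A peaks.

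JAZ3, the repressor whose stabilised form gave the jasmonate-insensitive jai3 mutant, had 1 site on its strand, chr3:6122986-6123035 on the plus strand. It stood at 8.61 and 7.70 TPM in Col0 and at 13.9 and 13.6 TPM in cpsf70, a log2 change of 0.69 (95% interval −0.19 to 1.58, limma adjusted p = 1.00). The genotypes did not overlap, but the interval included 0. m6A peaks at chr3:6122691-6122980 (fold 3.0) and chr3:6122707-6122992 (fold 2.98) reached up to or into this site. These peaks carry no strand, and both enclose a cluster on the opposite strand, chr3:6122894-6122917, listed only in Col0 replicate 2 at 53.5 TPM. Which strand the m6A peaks belong to cannot be told apart. CLIP peaks shared between replicates lay within the m6A region, at chr3:6122698-6122783 (fold 3.57) and chr3:6122778-6122827 (fold 3.40). These 2 peaks met only at their edges. A peak over the site itself, chr3:6122945-6123002 (fold 5.0), was listed in replicate 1 only.

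JAZ9, a further ZIM-domain repressor of MYC2, was the most abundant of the JAZ genes followed here. Its joined site, chr1:26656957-26657081 on the plus strand, stood at 23.9 and 18.5 TPM in Col0 and at 65.1 and 45.7 TPM in cpsf70. The ratio of means was 2.62 and the log2 change 1.34 (95% interval 0.45 to 2.22, limma adjusted p = 0.134). Both cpsf70 libraries lay well above Col0, without passing the test.

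JAZ9 ends fell into 2 neighbouring clusters in every table. The upstream cluster stood at 11.2 and 11.7 TPM in Col0 and at 46.3 and 31.4 TPM in cpsf70, and the downstream cluster at 12.8 and 6.77 TPM and at 18.8 and 14.3 TPM. The upstream share was 46.7% (exact interval 35.0 to 58.6%) and 63.3% (49.9 to 75.4%) in Col0, and 71.1% (65.1 to 76.6%) and 68.6% (62.9 to 74.1%) in cpsf70. Only Col0 replicate 1 stood apart from cpsf70 beyond counting error. The upstream cluster spans 24 nt in the Col0 tables and 76 nt in the cpsf70 tables, and how far this width enters the difference was not tested.

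At JAZ9 the 3 kinds of feature coincided. m6A peaks at chr1:26656740-26657008 (fold 2.49) and chr1:26656804-26657017 (fold 2.81) overlapped the joined site. CLIP peaks at chr1:26656981-26657033 (fold 4.29) and chr1:26656971-26657042 (fold 6.79) lay over the upstream cluster and the end of the m6A peaks.

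JAZ10, whose splice forms make repressors that resist degradation, had peaks although no poly(A) cluster was listed. CLIP peaks at chr5:4220517-4220578 (fold 7.44) and chr5:4220509-4220568 (fold 11.7) were at the 93.1 and 98.9 percentiles of fold in their tables. They were the highest CLIP folds among the 10 genes in each replicate. An m6A peak, chr5:4220529-4220723 (fold 3.6), was listed in replicate 2 only.

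**Figure D3:**
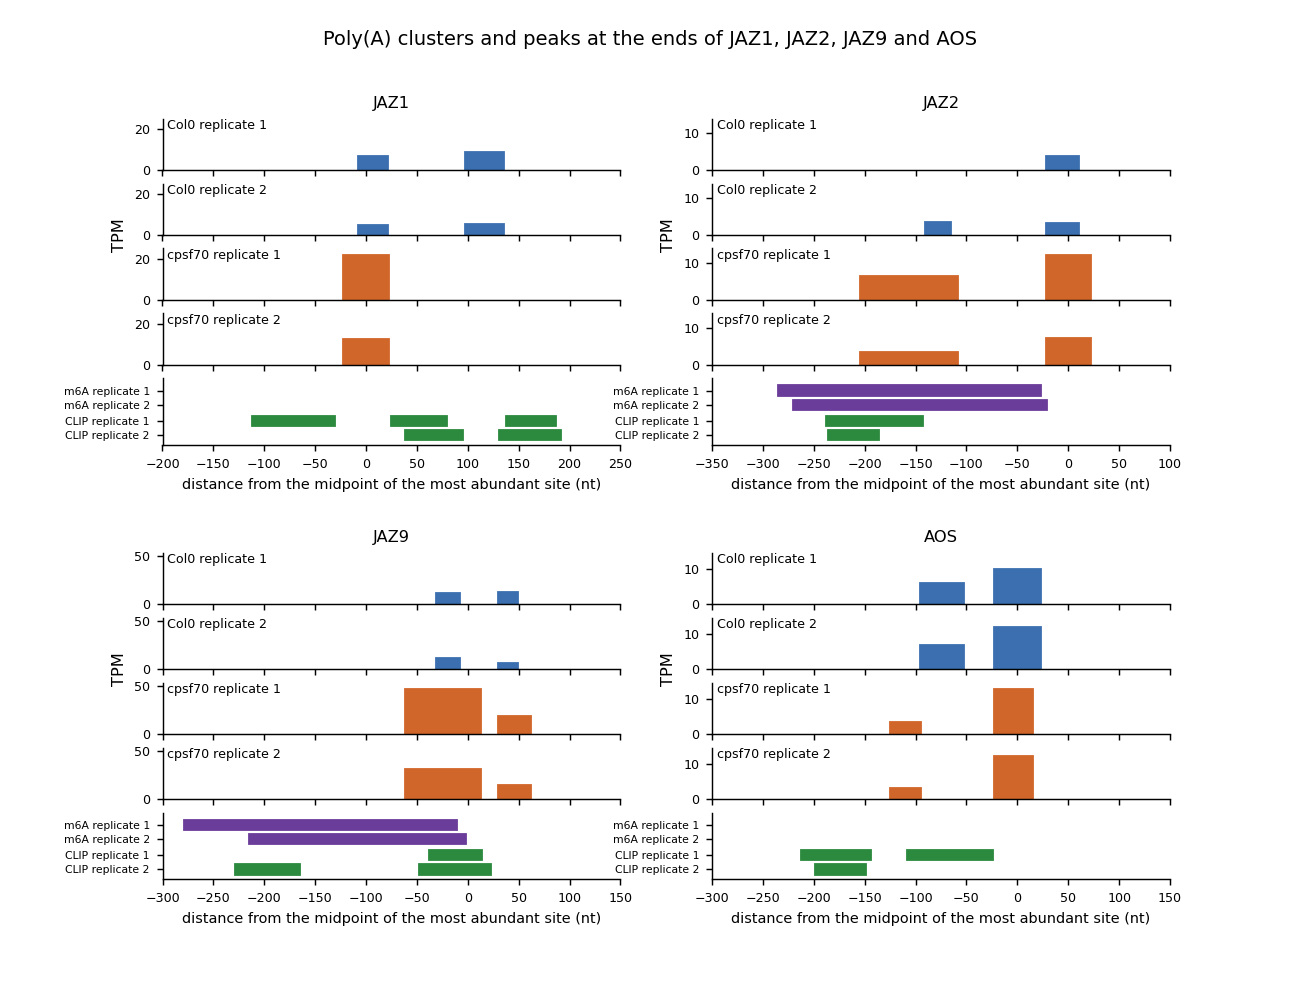
Poly(A) clusters on the gene's strand (height in TPM, 1 row per library) and m6A and CLIP peaks at the ends of JAZ1, JAZ2, JAZ9 and AOS, by distance in nt from the midpoint of the most abundant site. JAZ1 has a second cluster in Col0 only (8.93 and 5.39 TPM), and the clusters of JAZ2 and JAZ9 are taller in cpsf70.

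The totals of both biosynthesis genes overlapped between the genotypes. LOX2, a plastid lipoxygenase that starts jasmonate synthesis, had its main site at chr3:16529308-16529352 on the plus strand, with 68.5 and 91.4 TPM for Col0 and 105 and 69.6 TPM for cpsf70. The log2 change was 0.11 (95% interval −0.77 to 0.99, limma adjusted p = 1.00) and the genotypes overlapped. LOX2 also had a small internal site, chr3:16528824-16528900, at 3.19 TPM in Col0 replicate 1 and at 3.86 and 6.73 TPM in cpsf70. A further internal site, chr3:16528992-16529055, was listed only in cpsf70, at 2.57 and 4.68 TPM. CLIP peaks sat on the main site in both replicates, chr3:16529291-16529343 (fold 6.68) and chr3:16529287-16529345 (fold 9.95), and LOX2 had no m6A peak.

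AOS, allene oxide synthase, acts directly after the lipoxygenase. Its total was 16.3 and 19.1 TPM for Col0 and 16.5 and 15.6 TPM for cpsf70 (log2 change −0.13, limma adjusted p = 1.00). Within that level the proximal site, chr5:17097687-17097760 on the minus strand, stood at 6.06 and 7.08 TPM in Col0 and at 3.6 and 3.28 TPM in cpsf70. The genotypes did not overlap at this site (log2 change −0.77, limma adjusted p = 0.802), while the distal site, chr5:17097612-17097658, stood at 10.2 and 12.0 TPM in Col0 and at 12.9 and 12.3 TPM in cpsf70. How often sites of all genes lack overlap was not counted.

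Site use of AOS was 0.67 and 0.69 in Col0 and 1.59 and 1.64 in cpsf70, so replicates lay close together and the genotypes apart. The change toward the distal site was 0.94 (SE 0.33, 95% interval 0.12 to 1.75, unadjusted p = 0.0311, limma adjusted p = 0.236), which did not pass. An unadjusted p under 0.05 in this direction was found in 3.61% of genes. AOS and MYC2 were the only 2 of the 10 genes with a testable pair of sites. Among all genes 0.509% passed (limma), and these were 10 genes with a shift to the proximal site and 0 with a distal one. A distal change of at least this size was found in 5.95% of genes, and 11.7% had both cpsf70 libraries above both Col0 libraries. The proximal share was 37.3% (exact interval 24.1 to 51.9%) and 37.1% (25.2 to 50.3%) in Col0, and 21.9% (12.5 to 34.0%) and 21.1% (13.4 to 30.6%) in cpsf70, so the intervals overlapped. The proximal clusters of the 2 genotypes met by little, chr5:17097687-17097731 in Col0 and chr5:17097730-17097760 in cpsf70, and only 28 nt separated the joined sites.

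A further AOS site, chr5:17098238-17098296, was listed only in cpsf70, at 1.54 and 3.12 TPM. AOS had 5 CLIP peaks in replicate 1, the most of the 10 genes there, and 2 in replicate 2, as did MYC2, JAZ1, JAZ3, JAZ9 and JAZ10. The peaks found in both lay upstream of the proximal site, at chr5:17097779-17097848 (fold 4.26) and chr5:17097784-17097834 (fold 3.62), and further upstream at chr5:17099186-17099239 (fold 6.21) and chr5:17099187-17099237 (fold 5.22). No m6A peak was listed at AOS.

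**Figure D4:**
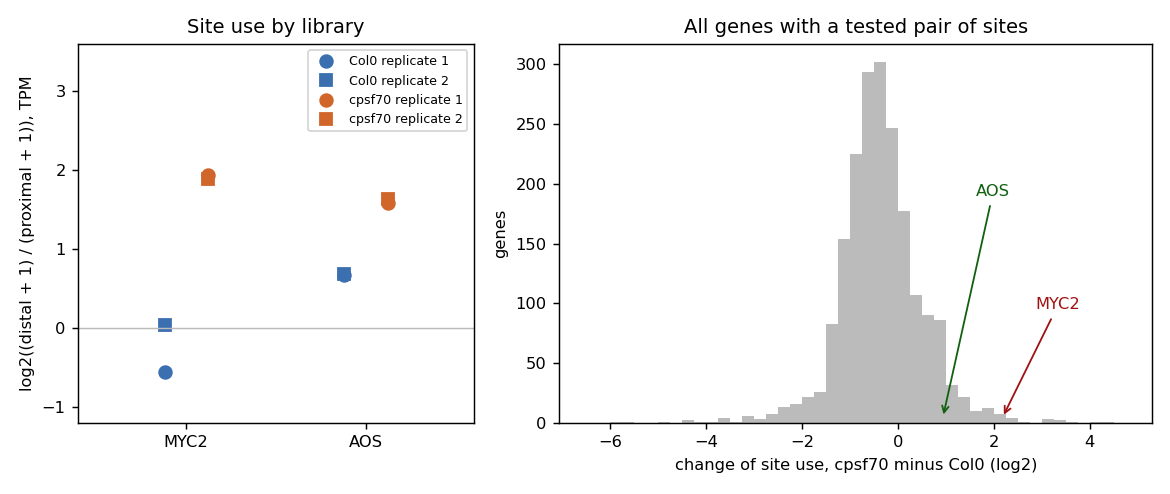
Site use of MYC2 and AOS by library (left, log2((distal + 1)/(proximal + 1)) of TPM) and the change of site use in all 1966 genes with a tested pair of sites (right, cpsf70 minus Col0, log2). MYC2 at 2.18 and AOS at 0.94 lie to the right of most genes, whose median is −0.40.

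VSP1 and VSP2 encode vegetative storage proteins, acid phosphatases that serve as readouts of the MYC2 branch. VSP1 had 1 site, chr5:8507653-8507678 on the minus strand, at 9.56 and 6.46 TPM in Col0 and at 10.8 and 10.2 TPM in cpsf70. The genotypes did not overlap, but the log2 change was 0.37 with an interval from −0.51 to 1.26 (limma adjusted p = 1.00). The CLIP peaks of VSP1, chr5:8508710-8508759 (fold 2.90) and chr5:8508709-8508759 (fold 3.59), lay far upstream of that site.

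VSP2 gave opposite orders in the 2 kinds of library. Its main poly(A) site, chr5:8500551-8500608 on the minus strand, stood at 101 and 83.4 TPM in Col0 and at 125 and 103 TPM in cpsf70, a log2 change of 0.30 (95% interval −0.58 to 1.183, limma adjusted p = 1.00). In the authors' deposited table of RNA-seq its FPKM was 42.8 and 42.0 for Col0 and 27.8 and 28.5 for the mutant, a ratio of means of 0.663, with a listed fold of 0.667 and p-value of 0.00388. So the cpsf70 libraries were higher by poly(A) tags, within an interval that includes 0, and lower by FPKM. That table holds only genes that the authors preselected on these values, with no p-value above 0.0497 and a fold under 1 in 41.1% of them. No label says whether the RNA came from the plants used for poly(A) sequencing. A further VSP2 site, chr5:8501580-8501594, was listed only in cpsf70, at 0.386 and 3.53 TPM, and CLIP peaks at chr5:8501680-8501731 (fold 5.78) and chr5:8501678-8501731 (fold 7.07) lay just upstream of it. The other 9 genes were not listed in the authors' deposited table.

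Across the 10 genes, CLIP peaks were found at more genes than m6A peaks. All 10 had a CLIP peak found in both replicates, beside 40% of all genes with a tested total and 40.7% of those with a mean between 6.56 and 103 TPM, the range of the 9 genes (JAZ10, without a tested total, is outside both groups). Of the 17 other pathway genes with a tested total, 13 had a shared CLIP peak, as did 23 of all 42. A shared m6A peak was found at MYC2, JAZ2, JAZ3 and JAZ9, which is 4 of 10, beside 74.9% of all genes and 76.3% of those in that range, and beside 10 of the 17 and 16 of the 42 pathway genes. None was shared at LOX2, AOS, VSP1 and VSP2, the enzymes and storage proteins, nor at the repressor genes JAZ1 and JAZ10. Peaks carry no strand, and those of m6A at MYC2 and JAZ3 also overlapped a cluster on the opposite strand. The m6A folds at JAZ2, JAZ3 and JAZ9 were low, at or under the 24.2 percentile of their tables, and MYC2 stood at the 34.2 and 53.4 percentiles. At JAZ2, JAZ3 and JAZ9 a shared CLIP peak overlapped a shared m6A peak, and at MYC2 none did. How many of all genes have such an overlap was not counted, so this only describes these genes. The control against which CLIP peaks were called is not stated, and the m6A plants were 14 days old against 12 for the others. When replicates had to overlap by at least 50% of the shorter peak, 9 of the 10 genes kept a shared CLIP peak and JAZ3 did not. When only peaks of at least 2 times the median fold of their table were counted, 0 of the 10 genes had a shared peak of either kind. The shares of all genes under these stricter rules were not counted, so whether the 10 genes differ there cannot be told.

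The rest of the pathway was read from a list of 42 genes, of which 17 had a tested total. None of the 17 passed, where 1.78% of all genes did. Of their changes 11 were above 0, beside 52% of all genes, with a median of 0.26 beside 0.022. The classes below hold few genes each. Of the biosynthesis genes, 5 of 6 had a change above 0, with a median of 0.61. OPR3, the reductase of the peroxisomal step, stood at 21.7 and 23.1 TPM in Col0 and at 55.1 and 32.3 TPM in cpsf70 (log2 change 0.89, limma adjusted p = 0.754). AOC1, an allene oxide cyclase, stood at 13.4 and 7.70 TPM in Col0 and at 21.6 and 17.6 TPM in cpsf70 (log2 change 0.88, limma adjusted p = 0.776). For both genes the cpsf70 libraries lay above Col0, as they did in 18.4% of all genes. AOC1 was higher in the authors' deposited table as well, with an FPKM of 14.2 and 13.4 for Col0 and of 23.2 and 25.0 for the mutant, a listed fold of 1.67 and p-value of 0.0130. That table holds only genes preselected on these values, so a low p-value was given in advance.

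Among perception and repression genes 4 of 5 changes were above 0 (median 0.20), and among transcription genes 2 of 4 (median 0.24), beside 52% of all genes. JAZ6 and JAZ12, the other JAZ genes with a total, had changes of 0.80 and 0.20, and the genotypes overlapped at JAZ12. These 2 genes were named after their values were seen. Both genes of hormone conjugation and turnover were below 0, as were 48.0% of all genes. One of them, CYP94C1, an oxidase that inactivates the hormone, stood at 51.4 and 3.08 TPM in Col0 and at 1.03 and 22.0 TPM in cpsf70 (log2 change −1.10, limma adjusted p = 0.404). Its replicates differed more from each other than the genotypes did. The other, JAR1, stood at 12.1 and 6.16 TPM in Col0 and at 5.15 and 3.61 TPM in cpsf70. Its genotypes did not overlap (log2 change −0.86, limma adjusted p = 0.799), and it too was named after its values were seen. The share of all genes with lower cpsf70 totals and no overlap was not counted. TAT3, a jasmonate-induced aminotransferase, had no tested total, and the authors' deposited table gave its FPKM as 4.49 and 4.98 for Col0 and as 1.41 and 1.35 for the mutant, with a fold of 0.422 and p-value of 0.0233. The limit of preselection holds for TAT3 too.

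**Figure D5:**
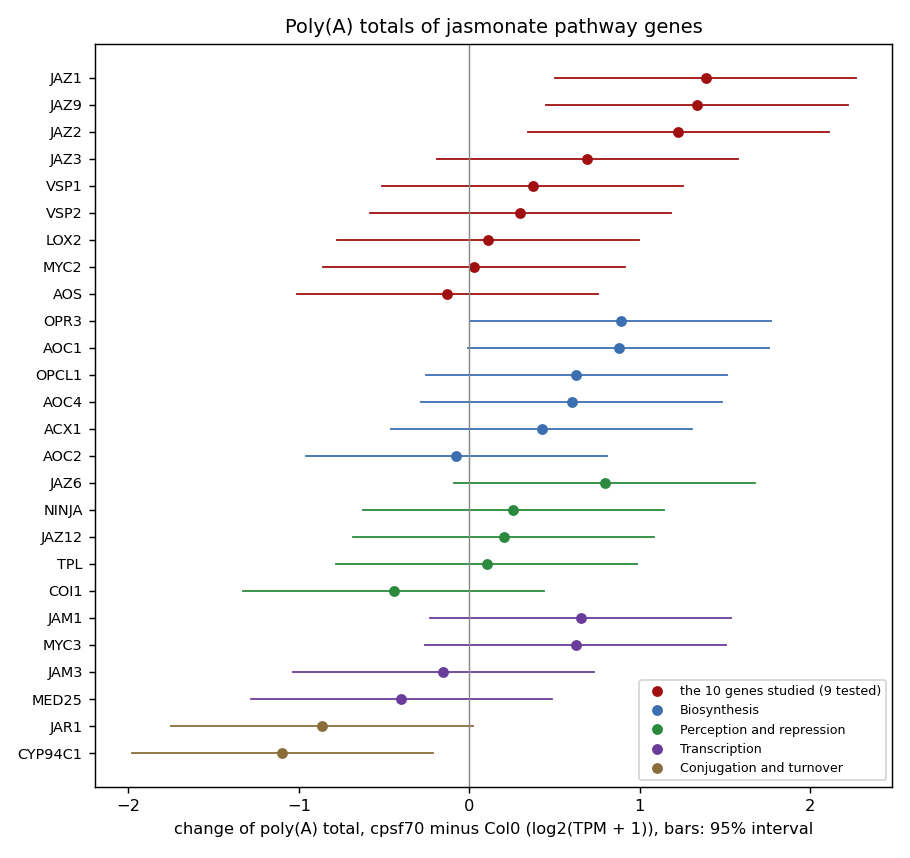
Change of the poly(A) total (cpsf70 minus Col0, log2(TPM + 1)) of the 9 genes described and of 17 further pathway genes, with 95% intervals from limma that all rest on 1 pooled SE. The intervals of JAZ1, JAZ9, JAZ2 and OPR3 lie above 0 and that of CYP94C1 below 0 before adjustment, and none of the genes drawn passed after it.

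A pair of sites could be tested in 2 further pathway genes, and both moved the other way from MYC2 and AOS without passing. Site use of COI1, the receptor, was 2.12 and 3.09 in Col0 and 1.17 and 1.299 in cpsf70 (change −1.37, limma adjusted p = 0.215). AOC2, another cyclase, was at 2.29 and 2.37 in Col0 and at 1.24 and 1.12 in cpsf70 (change −1.15, limma adjusted p = 0.191). In both genes the cpsf70 libraries lay below Col0, as they did in 44.2% of all genes.

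The genes whose site use over the 4 libraries was most like that of MYC2, by Euclidean distance after centring each gene, were CAO (0.454), AT2G23940 (0.473), MDAR6 (0.537), p24delta5 (0.539) and emb2726 (0.591). CAO, chlorophyllide a oxygenase of chlorophyll b synthesis, had a site use of 0.98 and 1.36 in Col0 and 3.25 and 2.81 in cpsf70. MDAR6, a monodehydroascorbate reductase, was at −2.38 and −2.08 in Col0 and at −0.38 and −0.65 in cpsf70, a like change at another level. None of the 5 is in the pathway list. Of that list only COI1 and AOC2 had a tested pair, and both changed toward the proximal site. The absence was therefore fixed in advance and says nothing about the other pathway genes.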

How the data were processed

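The 10 genes, the pathway list and the tests were chosen with earlier results of these data known. Sample titles gave the groups and replicate numbers. Separate plantings are not stated for replicates, so p-values measure only the spread between these libraries, possibly technical. Both CLIP samples of Col0 are not analysed here.

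Per the submitters' processing notes, the tools were MACS2 2.2.5, HISAT2 2.1.0 and cutadapt 1.18, with the TAIR10 genome. Per the file headers, the authors deposited poly(A) clusters in TPM, 1 table per library. 1 read was worth 0.319, 0.308, 0.257 and 0.164 TPM, and 81.3%, 75.7%, 81.9% and 75.9% of low values lay within 0.01 read of a whole number, too few for a count test. Peaks of m6A and CLIP were deposited separately for each replicate, with a fold enrichment and a −log10 p-value per the file headers and no strand. Inside the CLIP tables the replicate numbers are swapped relative to the titles, which were followed. The authors deposited RNA-seq as FPKM per library with a fold and a p-value. The fold has no stated scale and is close to (mean FPKM + 1) divided by the same for Col0.

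Clusters on a strand were joined across gaps of up to 24 nt, giving 30191 sites, 13668 of them in all 4 tables. Gene spans and names were those of RefSeq (TAIR10.1), and all 10 loci matched. That annotation gave no strand, so strand was inferred from poly(A) tags in the outer 40% of a span and 200 nt beyond (at least 75% on 1 strand), or from inner tags (at least 90%), a rule set while looking at the data, and 16445 genes received one. Sites went to the gene with the nearest end, and 87.1% fell in a gene. Peaks were counted in the span plus 200 nt and shared when replicates overlapped by at least 1 nt.

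Differences were tested with limma 3.58.1 (R 4.3.3; eBayes, 2-sided, Benjamini-Hochberg, threshold 0.05) on log2(TPM + 1), which understates changes of low values. Shares have exact Clopper-Pearson 95% intervals from reads rounded to whole numbers. The limma fits were tried on simulated data with the same spread for every feature and log2 changes of 2, 3 or 4. All changed features were recovered, with 17 false calls for gene totals, 6 for site use and 6 for sites. Changes as small as those of the totals here, and spreads that differ between genes, were not simulated. All 10 genes were named, with pathway genes that passed, had an unadjusted p under 0.05, stood in the RNA table or had the 3 largest changes of a fit, and the 5 genes most like MYC2. The alternatives were rescaling, pseudocounts, filters, joining rules, a replicate block and leaving out each library.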

Additional observations from a re-analysis of the deposited data

Results flagged for a closer look

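Clusters on the strand opposite to MYC2 and JAZ3 belong to no comparison above. At MYC2 the opposite strand held chr1:11798526-11798572, with 6.95 TPM in cpsf70 replicate 1 as its highest library, and chr1:11798097-11798159, listed only in cpsf70 at 2.83 and 3.45 TPM. At JAZ3 it held chr3:6119563-6119580, listed only in cpsf70 at 0 TPM in replicate 1 and 8.73 TPM in replicate 2. JAZ3 also had chr3:6122894-6122917 at 53.5 TPM in Col0 replicate 2 and in no other table, which is more than JAZ3 had on its own strand in any library. All 4 lay above the level that 3 reads give (0.492 to 0.956 TPM). The source of these clusters was not tested.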

How the results depend on the processing

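The direction of JAZ1, JAZ2, JAZ3, JAZ9, VSP1 and VSP2 totals and of MYC2 and AOS site use held under every alternative that gave them a value, and 279 of the values of the 10 genes kept direction and side of the threshold, while 7 passed only under an alternative. AOS site use had no value with a mean of at least 10 TPM, with midpoints or with gaps of at most 50 nt. The change of MYC2 site use ran from 1.88 to 2.48. JAZ1 passed as a total with a floor of 3 TPM in every table (adjusted p = 0.0383; range over alternatives 0.0383 to 1.00). With a pseudocount of 3 the sites of JAZ1 (1.17, adjusted p = 0.0199) and JAZ9 (1.26, adjusted p = 0.00897) passed, and with joining around midpoints the upstream JAZ9 cluster did (1.66, adjusted p = 0.0215). The other 3 were MYC2 values, given without a test: its proximal site with a pseudocount of 3 (−1.198) and its site use with absent sites set to 0 (2.18) and with midpoints (2.02). Small changes turned sign: the MYC2 total was −0.030 after rescaling and ran from −0.33 to 0.38 when each library was left out, the LOX2 total and site from −0.18 to 0.40, the AOS total was 0.17 with a mean of at least 10 TPM or midpoints and 0.057 with absent sites set to 0, and the AOS distal site was −0.13 with gaps of at most 50 nt.

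Counts over all genes depended on the processing. Gene totals gave 182 calls, 52 after rescaling (4 higher, 48 lower), 1682 with absent sites set to 0 and 102 with overlapping strongest clusters; midpoints turned 27 higher and 155 lower into 94 and 84. Site use gave 10 calls, 2 with a mean of at least 10 TPM, 1183 with absent sites set to 0, 546 with midpoints and 0 with overlapping strongest clusters (limma, 280 at an unadjusted p under 0.05). Sites gave 301 calls, 34 after rescaling, 610 with a pseudocount of 3, 5538 with absent sites set to 0, 462 with midpoints and 158 with overlapping strongest clusters. Leaving out each library gave 123 to 164 totals, 0 to 41 site-use calls (4 and 0 without Col0 replicates 1 and 2, 41 and 25 without cpsf70 replicates 1 and 2) and 179 to 332 sites; the library left alone was assumed to vary like the others. The VSP2 FPKM ratio ran from 0.655 to 0.671. At 2 times the median fold no gene of the 10 kept a shared peak, 0 for m6A and 0 for CLIP, and the share of all genes at this setting was not counted. The cause of these moves was not tested.

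The replicate numbers do not pair the samples by the labels (correlation of deviations 0.198, 2 pairs). A replicate block gave 1 total, 25 site-use calls and 0 sites (limma, 2207 at an unadjusted p under 0.05).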
